A study of Mus musculus with 2 samples.

Results

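Divergent protein-coding promoter pairs, in which neighbouring genes are read in opposite directions from nearby starts, were examined in 2 DNase-seq libraries of mouse hippocampus. DNase-seq maps chromatin that the nuclease DNase I can cut. A pair was made of autosomal protein-coding genes of GENCODE M21 on opposite strands, pointing apart, with their annotated 5′ ends 1 to 1000 bp apart. The region of a pair was the interval between the starts plus 250 bp on each side. The rule gave 734 pairs with 1448 genes, which was 6.96% of the 20807 autosomal protein-coding genes. The starts of a pair were 1 to 987 bp apart, with a median of 128 bp. No value of the libraries entered the rule. In each pair name the gene on the minus strand stands first and the gene on the plus strand second.

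Per the labels, both libraries were made from a layer of hippocampus of female B6CASTF1/J mice aged 14 days, a hybrid bred from C57BL/6J and CAST/EiJ parents. For each library 3 females are named, and the libraries are numbered 1 and 2 as biological replicates of a single group, with no treatment and no second genotype. Both libraries carry the same donor entry and separate sample entries, and whether separate animals were used is not stated, so part of the spread between libraries may be technical. A single group allows no comparison between conditions, and no test was made.

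Active gene starts are usually free of nucleosomes, and most mammalian ones can initiate transcription on both strands. Where the upstream product is itself a protein-coding gene, the stretch between the starts serves both genes and is called a bidirectional promoter. Such promoters are known to be rich in CpG dinucleotides, to lack TATA boxes, and to serve many genes of DNA repair, mitochondria and other functions that every cell needs.

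The libraries measured the same regions with different reach. Replicate 1 had 115699 deposited peaks and replicate 2 had 167829, and 1.52% and 2.05% of autosomal bases lay in runs with a false discovery rate (FDR) of the cut rate under 0.05. Read depth is unknown, and the scaling of the peak signal is not stated. As a check of the tissue label, 7 of 10 neuronal marker genes had a peak within 250 bp of their annotated 5′ end in both libraries, against 1 of 4 for astrocytes, 2 of 4 for the oligodendrocyte lineage, 0 of 3 for microglia and 0 of 6 for organs other than brain. Over all autosomal protein-coding genes 55.3% had such a peak, so the neuronal count is near the share of any gene and is a weak check of the label. Markers were examined at the gene's 5′ end only, so a gene open at another start counted as closed.

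The intervals between the starts of 9 pairs are shown here because they are the sequences that the peaks and footprints below refer to. A footprint is a short stretch inside open chromatin that is cut less than its surroundings, as under a bound protein. Each sequence runs 5′ to 3′ on the plus strand, from the base after the start of the minus-strand gene to the base before the start of the plus-strand gene. The sequences are those of the RefSeq GRCm38.p6 genome, the assembly that mm10 names, and overlapped 0 annotated exons of GENCODE M21. The CAST/EiJ alleles of these hybrid mice were not examined. They may differ from the reference in the printed bases and in the words searched below. Capitals mark bases that lay in a footprint in both libraries.
Hjurp/Trpm8: ggggagggacgagagggagggtccgcc
Cdc27/Myl4: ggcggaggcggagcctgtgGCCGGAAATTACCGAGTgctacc
Nfya/Oard1: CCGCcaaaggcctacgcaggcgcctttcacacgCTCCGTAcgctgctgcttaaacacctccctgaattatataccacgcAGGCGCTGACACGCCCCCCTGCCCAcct
Gtf3c1/D430042O09Rik: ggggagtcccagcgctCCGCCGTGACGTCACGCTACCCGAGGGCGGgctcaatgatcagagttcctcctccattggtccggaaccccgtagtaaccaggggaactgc
Tepsin/Ndufaf8: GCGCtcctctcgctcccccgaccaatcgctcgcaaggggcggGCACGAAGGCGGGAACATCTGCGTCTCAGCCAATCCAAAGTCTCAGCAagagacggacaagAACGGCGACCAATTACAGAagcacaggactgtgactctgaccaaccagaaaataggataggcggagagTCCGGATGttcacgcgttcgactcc
Fbh1/Ankrd16: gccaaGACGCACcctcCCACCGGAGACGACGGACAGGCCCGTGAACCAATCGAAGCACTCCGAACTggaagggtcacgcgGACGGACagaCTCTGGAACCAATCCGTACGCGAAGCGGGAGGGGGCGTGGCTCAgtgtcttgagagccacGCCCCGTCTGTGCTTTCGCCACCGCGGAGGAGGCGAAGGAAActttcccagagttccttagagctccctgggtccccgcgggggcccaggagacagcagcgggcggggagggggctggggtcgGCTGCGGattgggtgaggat
Mrps12/Sars2: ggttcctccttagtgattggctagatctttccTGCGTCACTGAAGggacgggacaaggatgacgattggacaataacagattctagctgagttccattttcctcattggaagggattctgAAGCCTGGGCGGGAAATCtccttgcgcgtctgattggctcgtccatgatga
B3galt6/Sdf4: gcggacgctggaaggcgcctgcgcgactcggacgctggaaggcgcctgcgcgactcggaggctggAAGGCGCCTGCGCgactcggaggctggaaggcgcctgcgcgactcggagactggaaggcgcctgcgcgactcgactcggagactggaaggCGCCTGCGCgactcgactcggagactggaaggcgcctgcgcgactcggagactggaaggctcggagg
Col4a4/Col4a3: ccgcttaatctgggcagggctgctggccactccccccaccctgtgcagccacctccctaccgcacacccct

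The footprinted share of these intervals differed widely. The interval of Fbh1/Ankrd16 (chr2:11777583-11777875) had 157 of its 293 bases, or 53.6%, in footprints of both libraries. The interval of Hjurp/Trpm8 (chr1:88277634-88277660) had 0 of 27 bases, although its region held 8 footprints in replicate 1 and 9 in replicate 2. In Gtf3c1/D430042O09Rik (chr7:125707781-125707887) the footprinted run held the word TGACGTCA, the palindrome known for factors of the CREB family. The interval of B3galt6/Sdf4 (chr4:155992650-155992871) was made of a repeat: the word ctggaaggcgcctgcgcgac occurred 7 times in its 222 bases. Of 648 intervals of at least 40 bp, it was the only one in which a word of 20 bases with all 4 letters occurred 3 or more times without overlap. Footprints of both libraries covered 9.91% of it, in overlapping parts of the unit in 2 of the copies.

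Nearly every pair was open in both libraries. A peak overlapped the region of 702 pairs (95.6%) in replicate 1 and 691 pairs (94.1%) in replicate 2, a mean of 94.9% ± 1.06 (SD, n = 2). The 691 pairs of replicate 2 were all open in replicate 1 as well, 11 pairs were open in replicate 1 only, and 32 (4.36%) had no peak in either. Over all autosomal protein-coding genes, 55.3% had a peak within 250 bp of the 5′ end in both libraries. Measured in that same window, 91.4% of the 1448 starts of pairs had one, against 52.6% of the 19359 starts in no pair. The share was 80.9% for 832 genes with a divergent non-coding gene within 1000 bp upstream, 77.1% for 1233 genes with another protein-coding start nearby in some other arrangement, and 48.1% for genes with no other gene start within 1000 bp. Both genes of a pair can be counted through the same peak, so the 1448 starts are not independent of each other.

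CpG content moved with this difference. The median CpG content of the window, as the number of CpGs observed over that expected from its C and G content, was 0.830 at starts of pairs and 0.558 at starts in no pair. All starts were divided by CpG content into 5 classes of equal size, class 1 the lowest, and 39.7% of the starts of pairs fell in class 5 and 36.4% in class 4. In class 5, 98.3% of the starts of pairs and 94.4% of the others had a peak in both libraries. In class 4 the shares were 96.6% and 89.6%. The gap was widest in class 3, at 87.6% of 275 starts of pairs against 67.4% of 3888 others. In class 2 the shares were 15.2% of 46 starts of pairs and 19.4% of the others, and in class 1 they were 4.0% of 25 and 3.17%. With the other starts weighted to the CpG classes of the pairs, an alternative chosen after seeing the data, the difference between pairs and others in peaks of both libraries was 7.82 percentage points instead of 38.7.

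**Figure D1:**
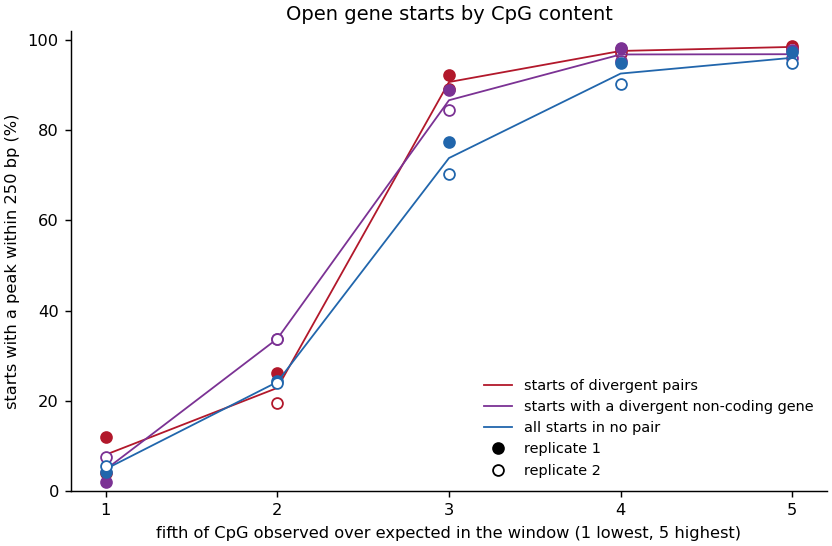
Share of autosomal protein-coding starts with a peak within 250 bp (vertical axis, percent) in each of 5 equal classes of CpG observed over expected (horizontal axis), for starts of pairs, starts with a divergent non-coding gene and starts in no pair, with filled points for replicate 1, open points for replicate 2 and lines through the mean of both. Starts of pairs and starts in no pair lie close together in classes 1, 2 and 5, and starts of pairs lie above by the most in class 3 (87.6% against 67.4% with a peak in both libraries).

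The peaks of pairs were also among the strongest of each library. The strongest peak of a pair had a median signal of 9.67 (range 0.547 to 43.6) in replicate 1 and 4.53 (range 0.248 to 23.3) in replicate 2, which placed the median pair at percentile 96.5 and 97.9 of all peaks of the library. In replicate 1, 605 pairs (82.4%) and in replicate 2, 629 pairs (85.7%) were in the top decile of peaks. Among open starts, each measured within 250 bp, the median was 9.57 at pairs and 5.23 elsewhere in replicate 1, and 4.44 and 2.34 in replicate 2. A rank in the top decile was common at other open starts too. The median percentile there was 91.5 in replicate 1 and 93.7 in replicate 2, against 96.5 and 97.8 at starts of pairs. The order of the signal medians held within CpG class 5, with 10.9 at pairs and 8.24 elsewhere in replicate 1, and 4.56 and 3.23 in replicate 2. Across the 691 pairs open in both libraries, signal on the log2 scale had a Pearson's r of 0.83 and Spearman's rho of 0.807 between libraries. These are descriptions over pairs that share 2 libraries.

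By the smaller percentile of both libraries, Hjurp/Trpm8 (chr1:88277383-88277911, starts 28 bp apart) was first, at 43.6 in replicate 1 and 23.3 in replicate 2. Hjurp is the chaperone that loads the centromeric histone, and Trpm8 is the cold-sensing ion channel. Fbh1/Ankrd16, with a DNA helicase gene, followed with 29.2 and 11.1, and Cdc27/Myl4 with 23.9 and 10.8. Cdc27 encodes a subunit of the anaphase-promoting complex and Myl4 a myosin light chain of atrial and embryonic muscle. Nfya/Oard1, whose first gene encodes a subunit of the CCAAT-binding factor NF-Y, had 23.4 and 10.6. Rer1/Morn1 had 22.4 and 9.95, Tepsin/Ndufaf8 27.9 and 9.05, and Deaf1/Tmem80 21.1 and 9.50. Gtf3c1/D430042O09Rik, with a subunit of the RNA polymerase III factor TFIIIC, had 20.9 and 9.34. Senp8/Myo9a had 20.8 and 8.65. These 9 regions passed the FDR threshold over at least 96.8% of their bases in both libraries, and their starts were all less than 300 bp apart.

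Pairs long known as bidirectional promoters were open with 1 exception. Of 21 such pairs listed from textbook knowledge, 9 met the rule, and why the others did not was not examined. Atm/Npat, which joins a kinase of the DNA damage response with a coactivator of histone genes, reached 19.7 in replicate 1 and 8.68 in replicate 2. Pdcd10/Serpini1 had 15.6 and 8.84. Mcm4/Prkdc, which joins a helicase subunit of DNA replication with a kinase of end joining, had 14.3 and 8.17. Mrps12/Sars2, both for translation in mitochondria, had 11.1 and 6.96. In replicate 1 its only peak lay beyond both starts, and with a flank of 100 bp this pair was open in replicate 2 only. Brca1/Nbr1 had 6.95 and 4.15, and Wrap53/Trp53 3.53 and 3.84. The exception in the regions as defined was Col4a4/Col4a3, for collagen chains of specialised basement membranes such as that of the kidney glomerulus. It had a peak of 0.562 in replicate 1, at percentile 32.8 of that library, and none in replicate 2, where 0% of its region passed the FDR threshold against 92.0% in replicate 1. Its interval, printed above, had no footprinted base in both libraries.

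How peaks lay over the starts depended on the distance between them. A single peak held both start bases in 419 pairs (57.1%) in replicate 1 and 433 (59.0%) in replicate 2, and in 371 pairs (50.5%) in both libraries. Separate peaks held the starts in 69 and 49 pairs, a peak held only 1 of the starts in 176 pairs in each library, and the peak lay on neither start in 38 and 33. The layout was the same in both libraries in 562 pairs (76.6%). For starts 1 to 100 bp apart (306 pairs), 89.5% in replicate 1 and 87.9% in replicate 2 shared a single peak. The share was 58.0% and 64.5% at over 100 to 200 bp (200 pairs), 27.1% and 29.2% at over 200 to 300 bp (96 pairs), 4.69% and 10.9% at over 300 to 500 bp (64 pairs), and 0% in both at over 500 to 1000 bp (68 pairs). The median width of the strongest peak was 240 bp in both libraries, so a peak of usual width cannot span the more distant starts. The midpoint of the strongest peak lay between the starts in 63.7% and 69.5% of open pairs.

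**Figure D2:**
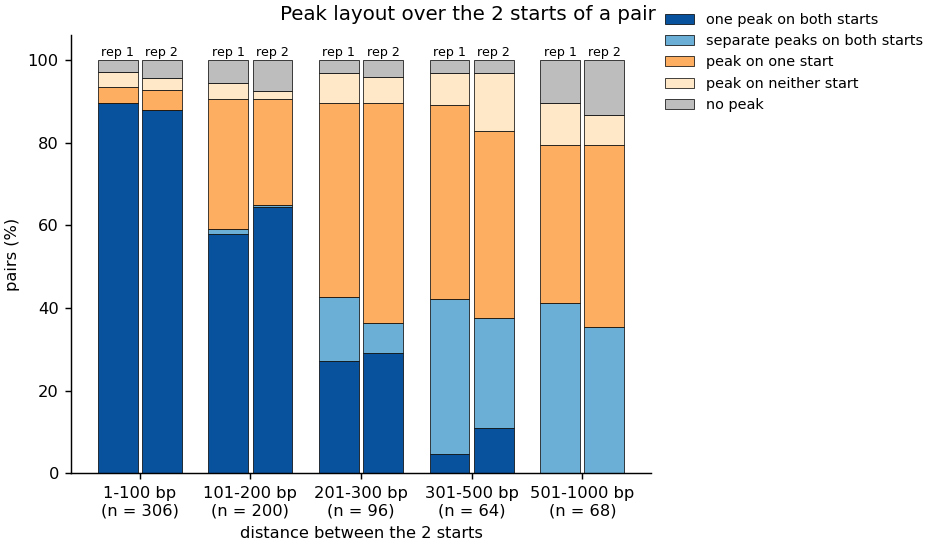
Share of pairs (vertical axis, percent) with each peak layout, by the distance between the starts (horizontal axis, number of pairs in brackets), with replicate 1 at the left and replicate 2 at the right of each class. A single peak over both starts made up 89.5% and 87.9% of the closest pairs and none of the pairs over 500 bp apart, where separate peaks or a peak on 1 start took its place.

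Runs of open bases showed how far the pairs remained joined. In the 691 open pairs, bases between the starts passed the FDR threshold of 0.05 over a mean of 97.4% in replicate 1 and 97.7% in replicate 2. The share was 98.1% and 96.9% for starts over 300 to 500 bp apart, although those pairs seldom had a single peak. For starts over 500 bp apart it was 75.8% and 78.7%. In that class, with closed pairs included, openness had 2 maxima: 79.0% of bases passed 300 to 350 bp to the minus side of the middle in replicate 1, 54.9% passed 50 to 100 bp from the middle on that side, and 73.1% passed 400 to 450 bp to the plus side. In replicate 2 the same bins held 72.4%, 64.7% and 71.1%, so the dip was shallower there. Within 1000 bp of the middle of an open pair, a median of 1052 bp passed in replicate 1 for the closest class and 1472 bp for the most distant, and 1110 and 1335 bp in replicate 2, where the highest median was 1460.5 bp at over 300 to 500 bp.

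**Figure D3:**
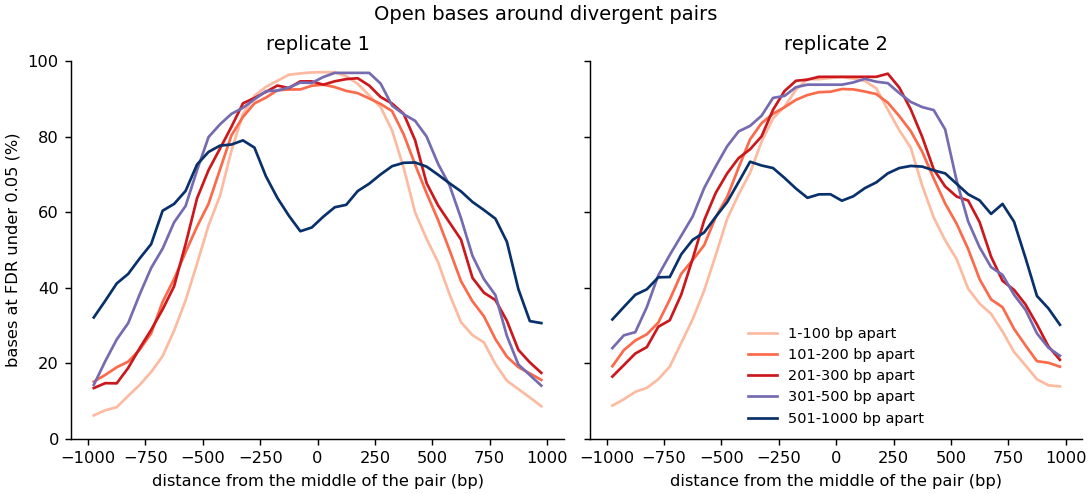
Share of bases in runs at FDR under 0.05 (vertical axis, percent) by distance from the middle of the pair (horizontal axis, bp, bins of 50 bp, minus-strand gene at the left), for all pairs of each distance class in replicates 1 and 2. The 4 classes up to 500 bp rise to a single plateau, while pairs over 500 bp apart have a dip in the middle, to 54.9% in replicate 1.

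Upstream openness was highest at pairs, lower at starts with a divergent non-coding gene and lowest at lone starts. Among starts open in both libraries, the bases 450 to 500 bp upstream passed the FDR threshold in 73.8% in replicate 1 and 72.7% in replicate 2 at pairs, against 27.4% and 33.2% at 7848 open starts with no other gene start within 1000 bp. The 673 open starts with a divergent non-coding gene upstream lay between, at 51.6% and 54.0%. Both libraries gave the same order, and the gaps were larger than the differences between libraries. Just upstream of the start, within 50 bp, the shares were 99.5% and 99.6% at pairs and 95.5% and 93.2% at lone starts. Downstream, 450 to 500 bp into the gene, the order was not shared: pairs had 54.5% and lone starts 69.5% in replicate 1, and 55.8% and 54.5% in replicate 2. The upstream bases of a gene in a pair are in part the first bases of its partner, so the upstream and downstream values of pairs are not separate observations.

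Within a pair the sides were mostly alike. In the first 250 bp of each gene, 512 of the 691 open pairs differed by under 10 percentage points of passing bases in both libraries, and many were at 100% on both sides, where the measure can show no difference. In 19 pairs the sides differed by at least 50 points in the same direction in both libraries. Of these, 47.4% were higher on the plus side. Tas1r1/Nol9, with a taste receptor gene on the minus strand and a gene of ribosomal RNA processing on the plus strand, had 0% of the Tas1r1 side and 100% of the Nol9 side passing in both libraries. Pcsk4/Reep6, whose first gene encodes a convertase of sperm cells, had 0% and 100% likewise, and Dedd2/Zfp526 had 0% and 100%. The reverse held for Obsl1/Inha, with the gene of the hormone subunit inhibin alpha, for Abhd12/Gins1, with a gene of DNA replication, and for Zcchc3/6820408C15Rik, with 100% of the minus side and 0% of the plus side in both libraries. All 6 had starts 455 to 810 bp apart.

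Footprints were dense in pairs and most dense between the starts. A region held a mean of 8.38 footprints in replicate 1 and 6.94 in replicate 2, or 7.66 ± 1.02 (SD, n = 2). Between the starts there were 1.60 and 1.65 footprints per 100 bp, against 1.21 and 1.00 over the whole region. These densities count each footprint that touches the stretch, which raises the value of short stretches. Of the footprints of replicate 1, 59.3% overlapped one of replicate 2, and 71.1% of those of replicate 2 overlapped one of replicate 1. Over all autosomal protein-coding genes, 49.4% had such a shared footprint within 250 bp of the start in both libraries. The share was 89.7% at starts of pairs and 46.4% at starts in no pair. Among open starts, windows of pairs held 7.35 footprints in replicate 1 and 6.33 in replicate 2, and the others 6.20 and 4.83, and the shared percentage was 62.6 and 71.9 against 53.6 and 69.1. The signal was also higher at pairs, as given above, and its part in these counts was not tested.

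Ttc9c/Hnrnpul2 (chr19:8819083-8820260) had the most shared footprints, with 17 of 21 in replicate 1 and 15 of 18 in replicate 2. Its starts are 677 bp apart and lay in separate peaks in both libraries, and the second gene encodes an RNA-binding protein of the hnRNP U family. Prkra/Pjvk followed with 14 of 17 and 13 of 15, and B3galt6/Sdf4, whose repeat is printed above, with 14 of 20 and 13 of 18. Nlgn2/Tmem256 had 12 of 18 and 12 of 13. Nlgn2 encodes an adhesion protein of inhibitory synapses and was the only one of 51 listed neuronal genes in a pair. Aldh6a1/Lin52 had 12 or more shared footprints in each library too, as did 1110059E24Rik/Abhd17b. Other pairs with separate peaks on strong starts were Cep57/Fam76b (16.4 and 10.3) and Cbx5/Hnrnpa1 (14.8 and 7.31).

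Consensus words of promoter factors were counted on both strands within 250 bp of each start, without regard to footprints. Of the 12 words, 9 were in a larger share of windows at pairs than at starts in no pair, also within 100 bp. The ETS word CCGGAAGT, known for GABPA and related factors, was in 15.3% of windows at pairs, 5.30% at starts in no pair and 5.99% over all starts. Restricted to starts open in both libraries it was in 16.5% and 9.14%, and in CpG class 5 in 13.7% and 10.4%. The YY1 word AAGATGGCG was in 7.39% at pairs, 2.53% elsewhere and 2.87% over all starts, with 8.01% and 4.45% at open starts. The words of the CCAAT-binding factor NF-Y (CCAAT, then C or G, then A or G) were in 34.3%, 22.4% and 23.2%, with 35.3% and 26.6% at open starts. The NRF1 word CGCATGCGC was in 5.73% at pairs and 2.52% over all starts, the ZBTB33 word CTCGCGAG in 4.28% and 1.58%, the CREB word TGACGTCA in 4.90% and 2.73%, the E2F word GGCGGGAA in 8.22% and 4.70%, and the ZNF143 word ACTACAATT in 1.04% and 0.58%. The SP and KLF word GGGGCGGG was in 39.1% at pairs and 26.2% over all starts, but its shares at open starts, 40.6% and 39.998%, were close to each other, and in CpG class 5 it was in 45.2% at pairs and 47.8% elsewhere. Among open starts the E2F word was in 8.24% at pairs and 6.74% elsewhere, the CREB word in 5.37% and 4.15%, the NRF1 word in 6.27% and 4.04%, and the ZBTB33 word in 4.31% and 2.45%. In CpG class 5 the E2F word was in 9.39% and 8.73%. Starts with a divergent non-coding gene had the ETS word in 9.86%, the NF-Y words in 29.3% and the YY1 word in 3.61%, each below the share at pairs. These letters are what was searched, and a match is not evidence of binding. A word in the overlap of the windows of a pair counts for both genes.

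The remaining 3 words were less frequent at pairs than over all starts. The AP-1 word TGANTCA was in 5.25% of windows at pairs and 9.55% over all starts, the neuronal E-box CAGATG in 15.7% and 23.2%, and TATAAA in 6.08% and 16.5%. In CpG class 5 the AP-1 word was in 4.17% at pairs and 4.13% elsewhere and the E-box in 11.3% and 11.1%, so neither was less frequent at pairs there. At open starts the AP-1 word was in 4.76% and 5.76%, the E-box in 14.8% and 17.1%, and TATAAA in 5.37% and 8.20%. Starts with a divergent non-coding gene had the AP-1 word in 5.41%, the E-box in 17.3% and TATAAA in 8.41%. Where a TATA box is expected, with the first T of TATAAA 20 to 40 bp upstream on the sense strand, the word was found at 3 of 1448 starts of pairs (0.207%) and at 513 of 19359 starts in no pair (2.65%).

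The words differed in where they lay and how often they were footprinted. A copy counted as footprinted where a footprint of each library overlapped it by at least 1 bp. NF-Y words were found 24.5 times per 10 kb between the starts and 3.68 times per 10 kb in the first 250 bp of the genes. GGGGCGGG had 21.2 and 6.08 per 10 kb, and the ETS word 3.91 and 1.99. The YY1 word had the opposite placement, with 0.356 between the starts and 1.74 in the genes, and 56 of its 64 copies in the genes (87.5%) read on the strand of the gene that holds them. At open starts, 93.3% of TGACGTCA copies at pairs were footprinted in both libraries, against 78.7% at starts in no pair. The NRF1 word was footprinted in 91.2% and 87.8%, and GGGGCGGG in 59.3% and 45.5%. NF-Y words were footprinted in 30.0% and 25.3%, the ETS word in 35.5% and 36.1%, and the AP-1 word in 10.9% and 4.2%. Here too a copy in the overlap of the windows of a pair counts for both genes. Over all pairs, GGGGCGGG was footprinted in 56.7% counted by start and in 53.3% counted once per region. TGACGTCA was footprinted in 93.3% and 92.7%. The AP-1 word had few footprinted copies, 7 of 64 at open starts of pairs. Over all pairs it was footprinted in 9.09% counted by start and in 6.78% (4 of 59) counted once per region. Windows at pairs also had higher signal, as given above, and its part in the footprinted shares was not tested. The Mrps12/Sars2 interval (chr7:28741821-28741991), printed above, is an example: of its 4 NF-Y words none was footprinted in both libraries, while its single E2F word was.

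**Figure D4:**
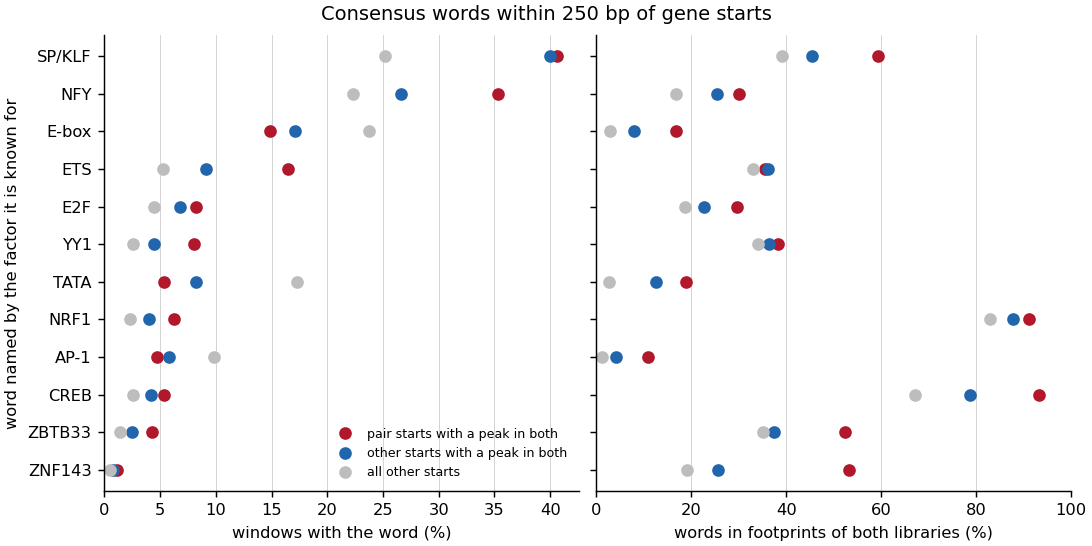
Share of windows of 250 bp on either side of a start with each consensus word (left, percent) and share of the words' copies overlapped by footprints of both libraries (right, percent), for starts of pairs with a peak in both libraries, other starts with a peak in both libraries, and all starts in no pair. The ETS, NF-Y and YY1 words are more frequent at pairs than at other open starts, and the NRF1 and CREB words are footprinted most often.

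Gene groups were unevenly placed in pairs. Against 6.96% of all autosomal protein-coding genes, pairs held 21 of 80 listed genes of DNA replication and repair (26.3%), 22 of 94 of oxidative phosphorylation (23.4%), 18 of 78 of the mitochondrial ribosome (23.1%) and 16 of 71 of splicing (22.5%). Smaller shares were found for chaperones (15.5%), the proteasome (14.9%), aminoacyl-tRNA synthetases (5 of 34), cilia (11.6%) and the cytosolic ribosome (10.1%). Zinc finger genes were at 5.19%, 57 listed genes of germline, liver, muscle and epithelium at 3.51%, neuronal genes at 1.96% (1 of 51), glial and vascular genes at 6.90% (2 of 29), and 0 of 1127 olfactory receptor genes was in a pair. These shares are properties of the annotation and not of the libraries.

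Pairs of these groups were open in both libraries about as often as all pairs, of which 94.1% were. All 18 pairs with a mitochondrial ribosome gene, all 16 with a splicing gene, all 12 with a chaperone gene and all 10 with a cilium gene had a peak in both, as did 21 of 22 for oxidative phosphorylation, 19 of 20 for replication and repair, 7 of 8 for the cytosolic ribosome and 16 of 18 for zinc fingers. Mrps18b/Ppp1r10, which joins a mitochondrial ribosomal protein with a regulator of protein phosphatase, reached 20.3 in replicate 1 and 8.18 in replicate 2. Rps28/Ndufa7 joins a protein of the cytosolic ribosome with a subunit of respiratory complex I over 10 bp and had 15.8 and 6.73. Med22/Rpl7a had 24.1 and 8.15, Hnrnpa2b1/Cbx3, with a splicing gene, 20.2 and 7.34, and Dnajb4/Fubp1, with a chaperone gene, 23.7 and 8.45. Lig4/Abhd13, with the ligase of end joining, had 17.5 and 6.94. Psmb1/Tbp joins a proteasome subunit with the TATA-binding protein and had 11.9 and 6.07. Cramp1l/Ift140, with a gene of transport in cilia, had 17.1 and 7.66. Listed genes outside pairs were also mostly open, for example 52 of 60 for the mitochondrial ribosome and 50 of 59 for replication and repair.

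Of the 2 listed genes of germline, liver, muscle and epithelium in pairs, 1 was in a pair open in both libraries. This was Tbc1d10b/Mylpf, whose second gene encodes a myosin light chain of fast skeletal muscle, at 7.27 in replicate 1 and 5.31 in replicate 2. Of the 55 listed genes of these tissues outside pairs, 1 (1.82%) had a peak at its start in both libraries. Of the 2 pairs with a glial or vascular gene, Odf3l1/Cspg4, with a proteoglycan gene of oligodendrocyte precursors and pericytes, had 1.79 and 0.617, and the other had no peak. In the stricter deposited peak list Odf3l1/Cspg4 had a peak in 1 library only. In whole tissue, few open cells and weak opening in many cells cannot be told apart.

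Pairs of replication-dependent histone genes stood apart. These genes encode the core histones that package new DNA, lie in clusters, and often have H2A and H2B genes back to back. Histone genes were the list with the largest share in pairs, 27 of 67 (40.3%), in 14 pairs. Of these 14, 11 were open in both libraries and 3 in neither. Over all 691 open pairs, the median ratio of the signal in replicate 1 to that in replicate 2 was 2.25, with 1.41 and 3.10 as the first and ninth deciles. In histone pairs the median ratio was 0.628. The ratio was below 1 in 10 of the 11 open histone pairs and in 11 of the other 680. The eleventh, Bola1/Hist2h2ab, which joins a histone gene with a gene of another kind, had 3.93 and 2.52, a ratio of 1.56.

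The lowest ratio of all pairs was that of Hist1h2bh/Hist1h3f, at 1.47 in replicate 1 against 3.84 in replicate 2 (ratio 0.384). Hist1h2an/Hist1h2bp had 3.46 and 6.63 (0.522), and Hist1h2bf/Hist1h2ad, the strongest in replicate 1, had 4.65 and 5.58 (0.834). In rank, the median histone pair was at percentile 84.2 of the peaks of replicate 1 and 97.3 of those of replicate 2, while the median over all pairs was 96.5 and 97.9. The pairs outside the histone genes with a ratio under 0.9 were H2-T22/Gm6034, Gm28635/Med19, Fbxo9/Ick, Zranb3/R3hdm1 and Ccdc146/Fam185a, named after their values were seen. Histone starts outside pairs had a median ratio of 1.55, and 9 of 36 were below 1, against 272 of 10152 other starts outside pairs (2.68%).

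Other measures moved with the ratio. It rose with GC content over the 691 open pairs, from a median of 1.73 in the lowest of 5 equal GC classes to 2.83 in the highest, with a Spearman's rho of 0.534. The open histone pairs had 40.9% to 57.5% GC. The 145 other pairs in that range had a median ratio of 1.79, with 10 below 1. Sequence that occurs elsewhere was also common in histone pairs. In the open ones a median of 46.0% of the words of 32 bases in the region occurred more than once on chromosomes 1 to 19 and X, and the median over all pairs was 0%. How reads of repeated sequence were placed is not stated, and the part of GC content, repeats or sampling in the ratio was not tested. Hist1h2bh/Hist1h3f, with the lowest ratio, had 9.38% of such words and 40.9% GC, the lowest GC content of the open pairs. Bola1/Hist2h2ab had 10.4% of such words and 51.3% GC.

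**Figure D5:**
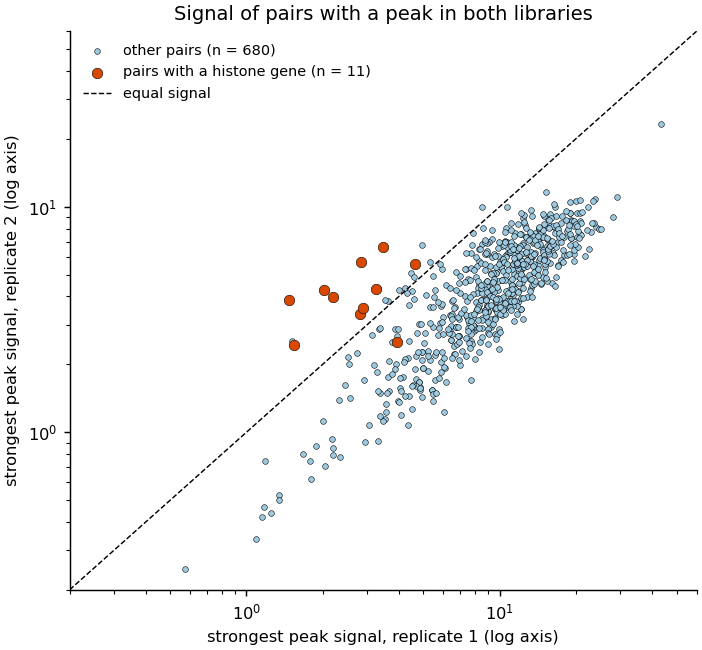
Strongest peak signal of each pair in replicate 1 (horizontal, log axis) and replicate 2 (vertical, log axis) for the 691 pairs with a peak in both libraries, with histone pairs in orange and a dashed line at equal signal. The scaling of the signal is not stated, so the distance of the cloud from the line has no meaning, but 10 of the 11 histone pairs lie above the line, against 11 of the 680 other pairs.

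The intervals of the histone pairs Hist1h2bf/Hist1h2ad and Hist1h2an/Hist1h2bp are printed with the NF-Y words and TATAAA in capitals, in either orientation. They were chosen after their values were seen, as the strongest pairs of H2A with H2B genes by the smaller percentile of both libraries.
Hist1h2bf/Hist1h2ad: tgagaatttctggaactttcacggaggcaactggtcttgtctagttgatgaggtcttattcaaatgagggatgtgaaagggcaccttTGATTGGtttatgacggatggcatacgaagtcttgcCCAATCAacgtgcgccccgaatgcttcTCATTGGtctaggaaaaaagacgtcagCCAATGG
Hist1h2an/Hist1h2bp: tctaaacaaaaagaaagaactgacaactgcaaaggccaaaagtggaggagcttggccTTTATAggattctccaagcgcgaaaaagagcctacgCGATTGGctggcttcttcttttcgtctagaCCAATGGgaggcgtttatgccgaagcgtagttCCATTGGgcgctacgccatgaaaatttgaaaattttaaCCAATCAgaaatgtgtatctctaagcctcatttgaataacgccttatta

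NF-Y words lay between the starts in 13 of the 14 histone pairs and in 211 of all 734 pairs (28.7%). TATAAA lay there in 9 of 14 and in 29 of 734 (3.95%). These counts take either strand and any place between the starts. At the expected place of a TATA box, as defined above, TATAAA was found at 1 of 27 starts of histone pairs (3.70%). It was found there at 2 of 1421 starts of other pairs (0.141%). The median distance between the starts was 259.5 bp in histone pairs and 128 bp over all pairs. Histone intervals thus offered more sequence for a match, and the part of length in these counts was not tested. Histone regions also held many words that occur more than once, as given above, so the 14 pairs may not be separate observations. Both printed intervals (chr13:23574197-23574380 and chr13:21787219-21787460) had 4 NF-Y words. In the first, none of these was footprinted in both libraries, and in the second, 1 was, by its last bases. Over all histone regions, 32.4% of footprints in replicate 1 and 39.0% in replicate 2 overlapped one of the other library, against 59.3% and 71.1% over all pairs.

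The 32 pairs with no peak in either library were mostly poor in CpG. Their median CpG content over the region was 0.302, against 0.835 for pairs open in both, while the median distance between starts was similar, at 140 and 127 bp. In 31 of them no base passed the FDR threshold in either library. The exception was Surf4/Stkld1, where 78.4% and 81.1% of bases passed although no peak reached the region. Another annotated start of Surf4, 147 bp away, had a peak within 250 bp, with 8.27 in replicate 1 and 2.60 in replicate 2. The most CpG-rich closed pairs were Hist1h2bq/Hist1h2ao (0.978), Hist1h2ap/Hist1h2br (0.949) and Hist1h2ba/Hist1h2aa (0.706), the last for histone variants of the testis. In the first and second of these, 100% of the words of 32 bases occurred elsewhere, so a read of that length would have had no unique place there and their closed state is uncertain. In Hist1h2ba/Hist1h2aa 2.71% did. The next were Klc3/Ckm, with muscle creatine kinase, Duox2/Duoxa2, for a peroxide-making enzyme of the thyroid, Aspa with Gm49340 and Spata22, and Bhmt2/Dmgdh.

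A closed pair did not always mean closed genes. In 12 of the 32 closed pairs, 1 gene had a peak within 250 bp of another of its annotated transcript starts in both libraries, in 1 pair both genes did, and in 19 pairs neither did. This check was added after seeing the data. Ccnt1, for a cyclin of transcript elongation, is paired with 4930415O20Rik and was open at a start 3243 bp away, where the peak had 21.3 in replicate 1 and 9.65 in replicate 2. Dgcr2, paired with the testis kinase gene Tssk2, was open 6869 bp away, with 16.0 and 7.08. Rps2, for a ribosomal protein, was open 1947 bp from the start it shares with Rnf151, with 14.999 and 6.61. Trim28, for a corepressor of zinc finger proteins, was open at a start 25038 bp away, with 11.8 and 3.64. For these genes a transcript with a distant 5′ end set the annotated pair.

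The 11 pairs open in replicate 1 only were mostly weak there. The highest was Ndufa5/Asb15, with a signal of 4.79 at percentile 90.6, followed by Grik5/Zfp574 with 2.83, Tradd/Fbxl8 with 1.69 and Nisch/Sema3g with 1.34. In Ndufa5/Asb15 and Grik5/Zfp574 the peak touched only the edge of the region: with a flank of 100 bp neither library had a peak there, and with 500 bp both did. In Tradd/Fbxl8, 94.1% of the region passed the FDR threshold in replicate 1 and 0% in replicate 2. On chromosome X, outside the autosomal rule, 16 of 20 such pairs (80.0%) were open in both libraries.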

How the data were processed

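DNase-seq was deposited for 2 libraries of mouse hippocampus. Per the listings the authors deposited with each library, peaks, footprints and runs of the cut rate were derived from that library's own filtered alignment to mm10. Not given in the sources used here were the aligner, the callers and the read length. The longer of each library's 2 deposited peak lists was used. The authors' peak caller gave each deposited peak its signal value, whose scaling is not stated, so libraries were compared by percentile or by ratio. The deposited runs carry a false discovery rate (a q-value), and all lie under 0.05. The deposited footprint score is 0.01 in every row, so footprints were only counted.

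Regions, windows and overlaps (at least 1 bp) were computed with Python 3.11.15, numpy 2.4.6, pandas 2.3.3 and scipy 1.17.1, and figures drawn with matplotlib 3.10.9. The counting was tested on simulated intervals. Starts were GENCODE M21 gene 5′ ends. CpG content was that of the region or of the window within 250 bp of a start.

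The members, gene lists, words and rules for named pairs were chosen with earlier results of these data known. Named pairs were the strongest, the textbook pairs, the most CpG-rich closed pairs, the strongest pairs open in 1 library, those with most shared footprints, up to 3 per gene list, those with the largest difference between sides and the strongest with separate peaks. Some pairs these rules name are not reported here. Alternatives changed the peak list, peak number, flank, largest distance, FDR threshold, overlap rule and comparison starts, and left out each replicate. No test between groups was possible with 1 group.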

Additional observations from a re-analysis of the deposited data

How the results depend on the processing

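Over 10 results and 54 alternative values, 12 values moved by more than the spread between replicates. A change of sign could be scored only for the difference between starts of pairs and other starts, where 0 alternatives changed sign. The results that are counts have no such spread. They were judged by a fixed fold limit instead, and their ranges are given. For a mean of both libraries, leaving out 1 replicate always gives a value within the spread, so it could not count as moved. The words more frequent at pairs numbered 9 in both windows, the gene lists above the share of all genes 10 at both distances, and the pairs with unlike sides 19, or 18 over the first 100 bp. The number of pairs with a peak in both libraries was 691 and ran from 632 to 695, or from 691 to 702 with 1 replicate left out. Pairs with a single peak on both starts numbered 371 and ran from 351 to 372, or from 419 to 433 with 1 replicate. The low ends of these ranges came from alternatives that left pairs out, 632 with a largest distance of 500 bp. Of the 680 pairs with no shared gene and no histone gene, 642 (94.4%) had a peak in both libraries. A single peak on both starts was found in 351 of them (51.6%). Over all 734 pairs these shares were 94.1% and 50.5%. The difference between starts of pairs and other starts was 38.7 percentage points. It was 42.4 with the stricter peak list, 40.4 with equal numbers of peaks, 41.4 with a largest distance of 500 bp, 43.3 against starts with no other start nearby, 36.02 to 37.1 with 1 replicate, and 7.82 weighted by CpG class. The median signal percentile, 97.2 over both libraries, was 95.3 in the stricter list and 96.5 to 97.9 with 1 replicate. The share of the region passing the FDR threshold, 90.1%, was 88.2% at an FDR of 0.01, 92.2% with a flank of 100 bp, 79.5% with 500 bp, and 89.2% to 91.0% with 1 replicate. Footprints per region, 7.66, fell to 5.52 when only those that overlap a peak were counted, and were 6.94 to 8.38 with 1 replicate. The shared percentage, 65.2, was 59.3 to 71.1. The CpG weighting and the omission of regions with over 50% repeated words were chosen after seeing the data. Of 74 named pairs with 370 alternative values, 4 pairs changed the number of libraries with a peak: Odf3l1/Cspg4, Ndufa5/Asb15, Grik5/Zfp574 and, with a flank of 100 bp, Mrps12/Sars2. The causes were not tested. No paired analysis was possible because the series has only 1 group. Depth is unknown, so weak peaks missing from a library cannot be told apart from closed sites.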

Other observations

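The annotation also held 446 overlapping head-to-head arrangements, in which the starts of opposite-strand protein-coding genes lay 0 to 1000 bp past each other. They are not members and were not measured as pairs. Of the 734 pairs, 40 shared a gene with another pair, and 6 had the same names as another pair.

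Starts with a divergent non-coding gene within 1000 bp upstream were often open as well. In CpG class 3, 83.8% of their 154 starts had a peak in both libraries, between the 87.6% of starts of pairs and the 67.4% of all starts in no pair, and in class 5 the 3 values were 95.7%, 98.3% and 94.4%.

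The weakest pair open in both libraries was Sirt1/Dnajc12, at 0.570 in replicate 1 and 0.248 in replicate 2. Sirt1 encodes a NAD-dependent deacetylase. Among open pairs outside the histone genes, H2-T22/Gm6034 had the lowest ratio of replicate 1 to replicate 2, with 1.51 and 2.54 (ratio 0.594), and 33.5% of its words of 32 bases occurred elsewhere. Fbxo9/Ick had 3.31 and 4.36 (ratio 0.758) with 0% of such words. The GC content of the region was 48.7% in H2-T22/Gm6034 and 47.8% in Fbxo9/Ick.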
